A study of Mus musculus with 6 samples.

Results

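Of 84111 peaks of methylated DNA from cultured mouse chondrocytes, 792 (0.942%) had their midpoint within 5 kb of a microRNA gene. A microRNA gene was any RefSeq gene whose symbol begins with Mir and a digit or with Mirlet7. The table holds 1193 such genes, of which 897 lie on sequence covered by the list and 296 were not analysed here. Of the 897, 886 are microRNA hairpin genes and 11 are lncRNA entries such as Mir17hg that share the prefix; 3 peaks were reached only through the latter. The values on genes below are for the 886 hairpin genes.

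MicroRNA genes encode short RNAs that pair with messenger RNAs through a seed near their 5′ end and lower the output of their targets. Most are cut from a hairpin transcript by Drosha with its partner Dgcr8 and then by Dicer1, and many hairpins lie inside the introns of longer host genes. Some hairpins, called mirtrons, are short introns that are released by splicing in place of Drosha. DNA methylation at CG dinucleotides, which Dnmt1 copies to new strands, is one of the marks found at microRNA genes, and cartilage needs Dicer1 and its microRNAs for the growth of the skeleton.

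MBD-seq reads DNA fragments pulled down by MBD2, a protein that binds methylated CG, and was done on 6 primary chondrocyte cultures from the knee articular cartilage of mice at postnatal days 3 to 5. The labels give 3 cultures from control mice of genotype Dnmt1 flox and 3 from conditional knockout (cKO) mice of genotype Prx1-Cre;Dnmt1 flox/flox. Prx1-Cre is active in limb mesenchyme, from which limb cartilage, bone and connective tissue arise, so the deletion is not limited to chondrocytes. The peak list was called on 3 merged datasets whose group its names do not give, and it holds no value for any single culture. The submitters title the list as a region of Dnmt1-mediated DNA methylation. Whether the cKO cultures entered the list or its background is not known here, which limits what a peak or its absence means. Control and cKO therefore cannot be compared here, no spread between animals can be given, the depth of each sample is unknown, and the chondrocyte label could not be checked against marker genes. Values below describe this 1 list. The 95% Wilson intervals treat genes or peaks as independent, which neighbours are not, and cover counting error only.

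The hairpins that the results turn on are shown first, as RNA 5′ to 3′ from RefSeq GRCm38.p6, with each CG in capitals since MBD2 binds it when methylated. All of them were overlapped by a peak. Mir7018 (chr4:137538286-137538370), Mir7023 (chr4:149655504-149655567, minus strand) and Mir702 (chr5:136991433-136991541) had the most peaks of the overlapped hairpins. Mir7005 (chr2:180179755-180179823, minus strand) and Mir7000 (chr2:92387384-92387446, minus strand) lay under the overlapping peaks with the highest folds and hold no CG themselves. Mir218-1 (chr5:48223942-48224051) and Mir218-2 (chr11:35616816-35616925) give the same mature microRNA from separate chromosomes.
Mir7018: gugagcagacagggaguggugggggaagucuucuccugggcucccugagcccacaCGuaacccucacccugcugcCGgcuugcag
Mir7023: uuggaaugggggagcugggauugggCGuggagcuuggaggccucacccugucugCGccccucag
Mir702: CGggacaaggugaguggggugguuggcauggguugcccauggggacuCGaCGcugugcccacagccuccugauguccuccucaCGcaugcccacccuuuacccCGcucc
Mir7005: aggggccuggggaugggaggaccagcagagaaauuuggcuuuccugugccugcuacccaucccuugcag
Mir7000: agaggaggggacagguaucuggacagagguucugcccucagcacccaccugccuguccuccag
Mir218-1: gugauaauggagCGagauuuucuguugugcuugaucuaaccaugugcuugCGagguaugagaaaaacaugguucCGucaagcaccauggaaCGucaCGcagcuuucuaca
Mir218-2: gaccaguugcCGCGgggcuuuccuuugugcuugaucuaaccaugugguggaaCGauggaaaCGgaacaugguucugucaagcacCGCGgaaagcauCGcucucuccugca

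Peaks lay within 5 kb of 452 of the 886 hairpin genes (51%; Wilson interval 47.7% to 54.3%). The same window around 851 genes of small nucleolar RNAs (snoRNAs), another class of short RNAs often released from introns, held a peak in 28.4% of cases (25.5% to 31.6%). Around the middle of a gene the share was 40.8% over all 36505 covered RefSeq genes, 45.1% over protein-coding genes and 33.7% over lncRNA genes. Of all 10 kb windows of the covered chromosomes, 28.4% held a peak. The share at microRNA genes was thus above each of these backgrounds, and the intervals for microRNA and snoRNA genes did not overlap.

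Most peaks lay away from the hairpin, and 115 of the 792 overlapped one. A peak overlapped 129 hairpin genes by at least 1 bp, which is 14.6% (12.4% to 17.0%), against 1.18% of snoRNA genes and 2.58% of the other RefSeq genes of at most 200 bp. The median distance from the midpoint of a microRNA peak to the nearest hairpin was 2074 bp. Where the strand was known, 329 peaks lay upstream of the nearest hairpin, 351 lay downstream and 21 had their midpoint inside it.

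Peak density was higher the closer to microRNA genes it was counted. It was 60.1 peaks per Mb at 100 to 250 kb, 72.2 at 10 to 20 kb, 97.4 at 2 to 5 kb and 143 within 1 kb, where the covered chromosomes averaged 43.0. Around snoRNA genes it lay between 45.0 and 47.4 peaks per Mb in every bin from 5 to 250 kb, and was 43.7 at 2 to 5 kb, 38.6 at 1 to 2 kb and 28.9 within 1 kb. Without the 2 largest groups of microRNA genes, which are described below, the density within 1 kb was 142.5 peaks per Mb. The density was thus above the average of the chromosomes already at 100 to 250 kb. GC content also differed with the peaks, with a median of 55.0% in overlapped hairpins and 49.2% in those with no peak within 5 kb, and its part in the density was not tested.

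**Figure D1:**
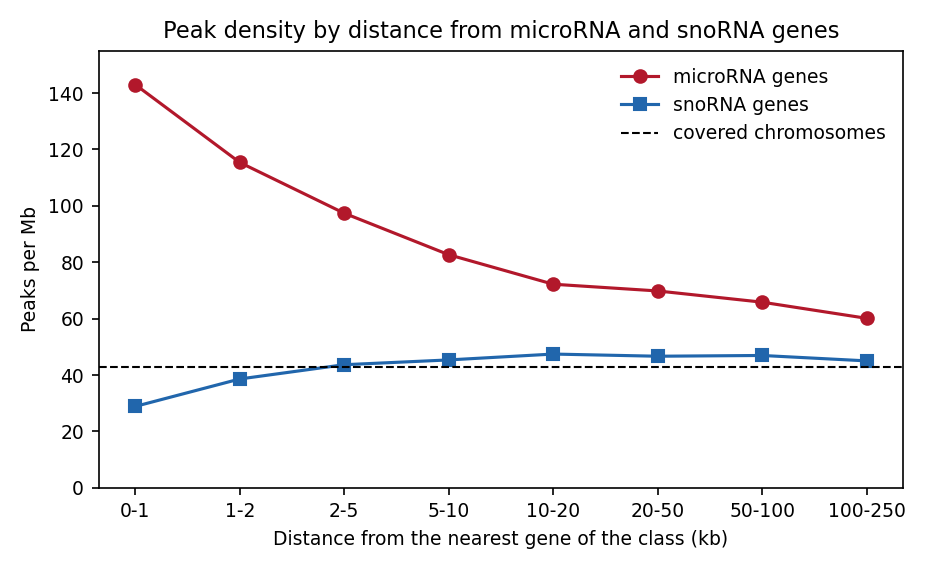
Peaks per Mb (y axis) by distance from the nearest microRNA or snoRNA gene in kb (x axis, bins of unequal width), with the average of the covered chromosomes as a dashed line. Density climbs to 143 peaks per Mb within 1 kb of microRNA genes and drops to 28.9 within 1 kb of snoRNA genes.

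Fold enrichment is the ratio over the background of the authors' peak caller. Peaks near microRNA genes had a median fold of 16.8 (quartiles 10.2 and 27.3, range 3.29 to 53.9), against 13.2 (8.41 and 21.7) over all chromosome peaks and 14.5 over the 305 peaks near snoRNA genes. The fold was at least 20 in 41.8% of microRNA peaks (331 of 792; 38.4% to 45.3%) and in 28.95% of all chromosome peaks. Their median width was 447.5 bp, against 415 bp. The 115 peaks that overlapped a hairpin had a median fold of 21.0 and a median width of 531 bp.

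The background of a peak can be worked out from the deposited fold and significance, here for all 792 microRNA peaks and for all but 25 of the 83968 chromosome peaks. The lowest value among the peaks so solved was 6.37 scaled reads. It was found in 714 of the 792 microRNA peaks (90.2%; 87.9% to 92.0%), against 75.02% of all chromosome peaks. At that value the fold is a comparison with a genome-wide average. Peaks just inside the 5 kb limit, at 4 to 5 kb from a hairpin, numbered 124 with a median fold of 18.7, and those at 5 to 6 kb numbered 109 with a median fold of 14.0.

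**Figure D2:**
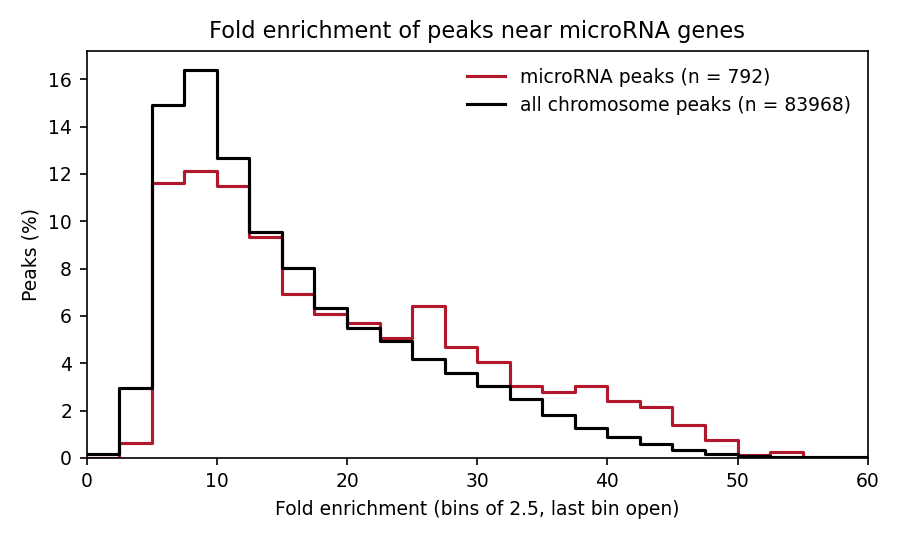
Share of peaks in percent (y axis) in bins of fold enrichment 2.5 wide (x axis) for the 792 microRNA peaks and for all 83968 chromosome peaks. The microRNA line lies below the other at folds under 20 and above it from 20 to 55.

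Of the 5 highest folds, 53.9 belonged to a peak of 1253 bp at chr4:139965274-139966526, 1626 bp downstream of Mir2139. The next were 53.7 at Mir1191b, 52.4 at Mir7012, 49.5 at Mir3547 and 49.4 at Mir6972. None of these 5 peaks overlapped the hairpin. They stood 1310 to 4250 bp from it, so a high fold in the window was not always a high fold at the hairpin.

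The number of peaks per gene was skewed. Of the 452 genes with a peak, 206 had 1, 106 had 2 and 35 had 5 or more. The 10 genes with most peaks were Mir7023 and Mir7018 with 8 each, Mir702 and Mir6922 with 7 each, and Mir7012, Mir7005, Mir6977, Mir6971, Mir7677 and Mir7027 with 6 each. The last 6 are those with the highest folds among 12 genes tied at 6 peaks, so the features shared were counted over all 16 genes with at least 6. All 16 lay inside a protein-coding gene, 13 of them stood alone and 11 carried a number of at least 6300 and below 7300 in their symbol. Of all 886 hairpin genes, 694 lay inside a protein-coding or lncRNA gene, 614 stood alone and 259 carried such a number. A peak overlapped the hairpin in 9 of the 16, beside 129 of the 886, but genes chosen for many peaks have more peaks that can overlap. The 14 with a sequence had a GC content of 55.6% to 67.2%, where the median over all hairpins was 52.1%.

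Mir7018 lies in Hspg2, which encodes perlecan, a heparan sulfate proteoglycan of basement membranes and cartilage matrix. Its 8 peaks had folds of 13.2, 29.8, 33.5, 37.2, 15.6, 6.65, 27.7 and 17.1 in the order of the plus strand. The third covers the hairpin (chr4:137538105-137538680), and the highest is its neighbour. The Hspg2 body held 28 peaks, so 8 of the 28 stood in the window around Mir7018.

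Mir7023 lies in Pik3cd, which encodes a catalytic subunit of phosphoinositide 3-kinase. Its 8 peaks had folds of 17.3, 40.7, 6.51, 29.8, 11.9, 25.4, 25.1 and 34.9 in the order of the plus strand, out of 12 in the Pik3cd body. The peak over the hairpin (chr4:149654803-149655836) had a fold of 29.8 from 356 reads. Mir7018 and Mir7023 share a mature seed on their 3p arms (bases 2 to 8, in capitals).
mmu-miR-7018-3p: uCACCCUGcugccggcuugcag
mmu-miR-7023-3p: uCACCCUGucugcgccccucag

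Mir702 lies in Plod3, an enzyme that modifies lysines of collagen. Its 7 peaks are all those of the Plod3 body and had folds of 8.28, 15.2, 43.4, 25.2, 26.6, 23.5 and 19.9. The highest covers the hairpin (chr5:136990729-136991826). Mir6922 had 7 peaks and its neighbour Mir6921 had 6 of the same 7 around Srebf1, a regulator of lipid synthesis, with folds from 7.19 to 31.6, and none overlaps either hairpin.

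The 10 overlapped hairpins with the highest folds all lay in host genes, as did 106 of all 129 overlapped hairpins. Of all 886 hairpin genes, 694 lay in a host, so most hairpins do so with or without a peak. Mir7005 in Lama5 had a fold of 46.3 and Mir7000 in Mapk8ip1 had 45.9. Mir6942 in Zkscan3 had 45.0, Mir6977 in Ptprs 44.0, Mir700 in Rcan3 43.4 and Mir702 43.4. Mir6970 in Skiv2l had 43.1, Mir6948 in Acin1 42.6, Mir3474 in Actr5 41.8 and Mir7029 in Gcn1 40.6. For Mir7000 and Mir6942 this was the single peak of the window. The other 119 overlapped hairpins had lower folds.

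Hairpins were then grouped by their CG content, for the 702 genes with a hairpin sequence in RefSeq. A peak overlapped 9.48% of the 211 hairpins with no CG (6.22% to 14.2%), 8.25% of the 194 with 1, 20.2% of the 183 with 2 or 3, and 31.6% of the 114 with 4 or more (23.8% to 40.6%). Hairpins with 4 or more had a median GC content of 61.5%, and those with none 48.2%. The share with a peak within 5 kb changed less, from 47.4% with no CG to 62.3% with 4 or more. Without the Dlk1-Meg3 genes described below, the overlap was 9.71% with no CG and 25.5% with 4 or more.

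**Figure D3:**
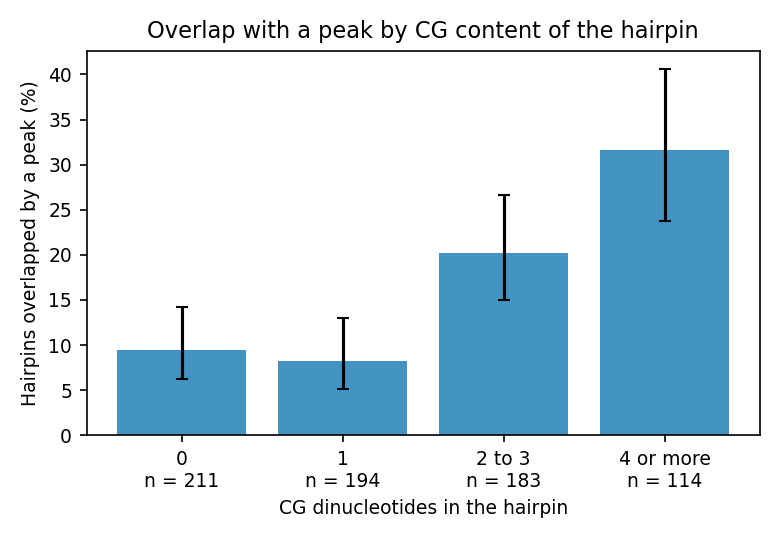
Share of hairpins overlapped by a peak in percent (y axis) by the number of CG dinucleotides in the hairpin (x axis), with 95% Wilson intervals. The bars stand at 9.48%, 8.25%, 20.2% and 31.6%.

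Hairpins that end in AG, the letters that close most introns, made up 166 of the 702 (23.6%). A match of these letters is a description and does not show that a hairpin is made by splicing. They had a peak within 5 kb in 67.5% of cases (112 of 166; 60.0% to 74.1%) and the others in 53.4% (49.1% to 57.5%). Of hairpins ending in AG 92.8% lay in a host gene, against 71.3% of the others, and their median GC content was 55.6% against 50.9%. Of hairpins numbered from 6300 to below 7300, a series of later entries, 56.1% end in AG, against 8.56% of all others. Genes of this series had a peak within 5 kb in 61.8% of cases (160 of 259; 55.7% to 67.5%), and those numbered below 1000, which include most of the long-known microRNAs, in 42.5% (164 of 386; 37.7% to 47.5%). The latter include the 71 genes inside Sfmbt2, described below, whose count of 0 peaks is uncertain. Without them the share below 1000 was 52.1% (164 of 315; 46.6% to 57.5%), and its interval overlaps that of the later series. The part of host gene, ending and GC content in these shares was not tested.

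MicroRNA genes were next divided into clusters, chained by gaps of at most 10 kb, and single genes. The 66 clusters held 272 genes, and 614 genes stood alone. A peak within 5 kb was found at 47.4% of clustered genes (129 of 272; 41.6% to 53.4%) and at 52.6% of single genes (323 of 614; 48.7% to 56.5%). Counting each cluster once, 35 of 66 had a peak (53.0%; 41.2% to 64.6%), which differed from single genes by less than the counting error. A cluster was counted if any member had a peak, so it covers a wider window than a single gene. Members of a cluster mostly shared their state. In 32 clusters every member had a peak, in 31 none had, and in 3 some had. With gaps of at most 10 kb, the 5 kb windows of neighbours overlap or touch, and 49 of the 66 clusters are pairs. A shared state is therefore partly set by these definitions.

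The largest 2 groups of clustered genes were at opposite ends. The 71 microRNA genes inside Sfmbt2, an imprinted Polycomb group gene of rodents expressed in placenta, had no peak within 5 kb and none on a hairpin (0 of 71, with a Wilson upper bound of 5.13%). They span 51.6 kb (chr2:10466663-10518279) and include the Mir466, Mir467, Mir669 and Mir297 families. The nearest peaks stood 26.6 kb below and 11.7 kb above, and the whole 224.8 kb body of Sfmbt2 held 9 peaks with a median fold of 9.22. They belong to repeated families of similar sequence, where reads may not be placed uniquely. This was not tested, so the count of 0 peaks is uncertain. None of the 71 had a hairpin sequence in the table.

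The 60 genes of the Dlk1-Meg3 region on chromosome 12, an imprinted domain whose microRNAs are made from the maternal copy, had a peak within 5 kb in 58 cases (96.7%), and 22 were overlapped. The exceptions were Mir882 and Mir453. They shared 25 peaks with a median fold of 13.6 (6.24 to 36.2). The Mir379 cluster of 39 genes had 11 peaks and 13 overlapped hairpins, and the Mir770 to Mir136 cluster of 16 genes had 8 peaks and 7 overlapped hairpins. At Mir431 the peak over the hairpin had 296 reads over a background of 24.4, a fold of 11.7. The highest fold of the region, 36.2, belonged to a peak at chr12:109716944-109717478 over Mir666 and Mir543.

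**Figure D4:**
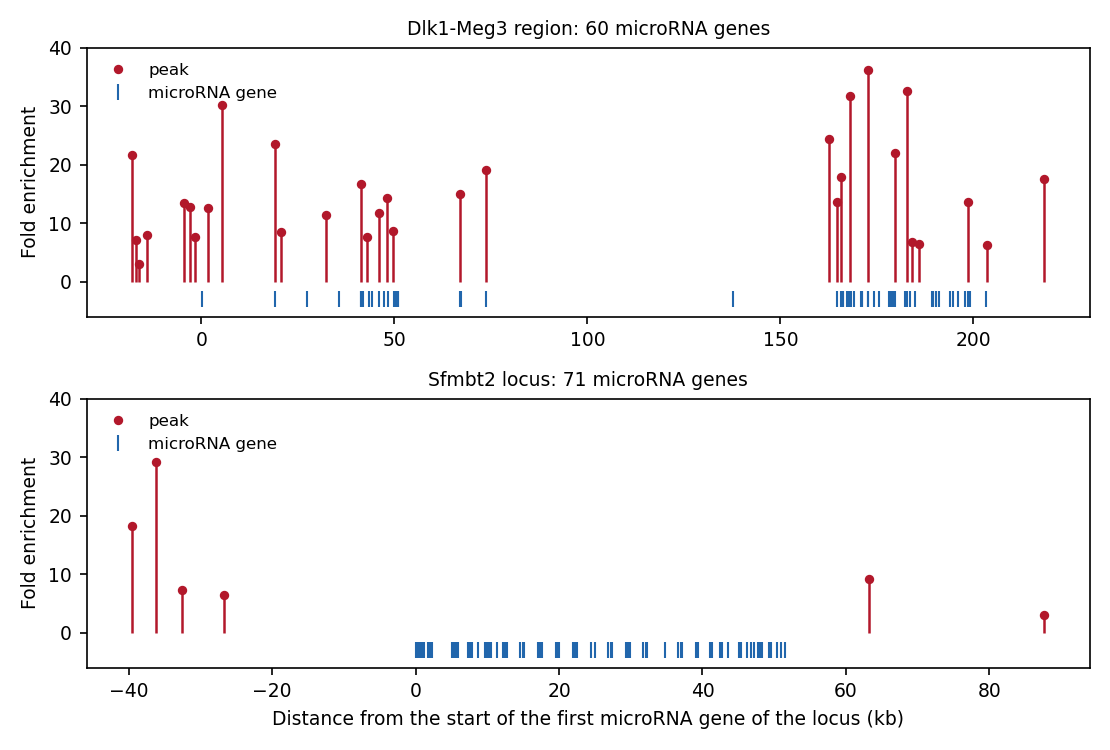
Peaks (red, y axis fold enrichment) and microRNA genes (blue ticks) against distance in kb from the first microRNA gene of each locus. Peaks stand among the microRNA genes of the Dlk1-Meg3 region and only outside the Sfmbt2 cluster, the nearest at 11.7 kb beyond its last gene.

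The share of clustered genes changed with these 2 loci. Without the Sfmbt2 genes it was 64.2%, without the Dlk1-Meg3 genes 33.6%, and without both 50.3% (72 of 143; 42.3% to 58.4%).

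Of the other large clusters, Mir17 to Mir92-1 on chromosome 14 (the Mir17-92 cluster, whose loss shortens bones of the limb) had 1 peak within 5 kb of all 6 genes. It covers Mir17 and Mir18 (chr14:115043647-115043948, fold 14.1). The 5 genes from Mir302b to Mir367 on chromosome 3, known from pluripotent cells, shared 1 peak with a fold of 10.0 that overlapped none of them. Among clusters of fewer genes, most peaks were found at Mir6921 and Mir6922 in Srebf1 with 7, Mir6971 and Mir6970 in Skiv2l with 6, and with 5 each at Mir6914 and Mir6915 in Ankrd52 and at Mir338 and Mir3065 in Aatk.

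Host genes were protein-coding or lncRNA genes whose span holds the whole hairpin gene. Whether a hairpin lies in an exon, an intron or a UTR of its host was not analysed here. Of the 886 genes 694 had a host, and 50.7% of these (352; 47.0% to 54.4%) had a peak within 5 kb, against 52.1% of the 192 with none (45.0% to 59.0%). Among single genes the classes were further apart. Single genes had a peak in 56.4% of cases inside a host (279 of 495; 52.0% to 60.7%) and in 37.0% outside (44 of 119; 28.8% to 45.9%). A peak overlapped 16.2% of the former (13.2% to 19.7%) and 3.36% of the latter (1.31% to 8.32%). Clustered genes went the other way, with a peak in 36.7% of cases inside a host (73 of 199) and 76.7% outside (56 of 73). A peak overlapped 13.1% and 26.0% of these. The Sfmbt2 and Dlk1-Meg3 loci are among the clustered genes. Over single and clustered genes together, without the 2 loci, the shares were 54.5% with a host and 43.8% without. Clustered genes alone were not split by host without the 2 loci, so these shares do not show whether their order changes.

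**Figure D5:**
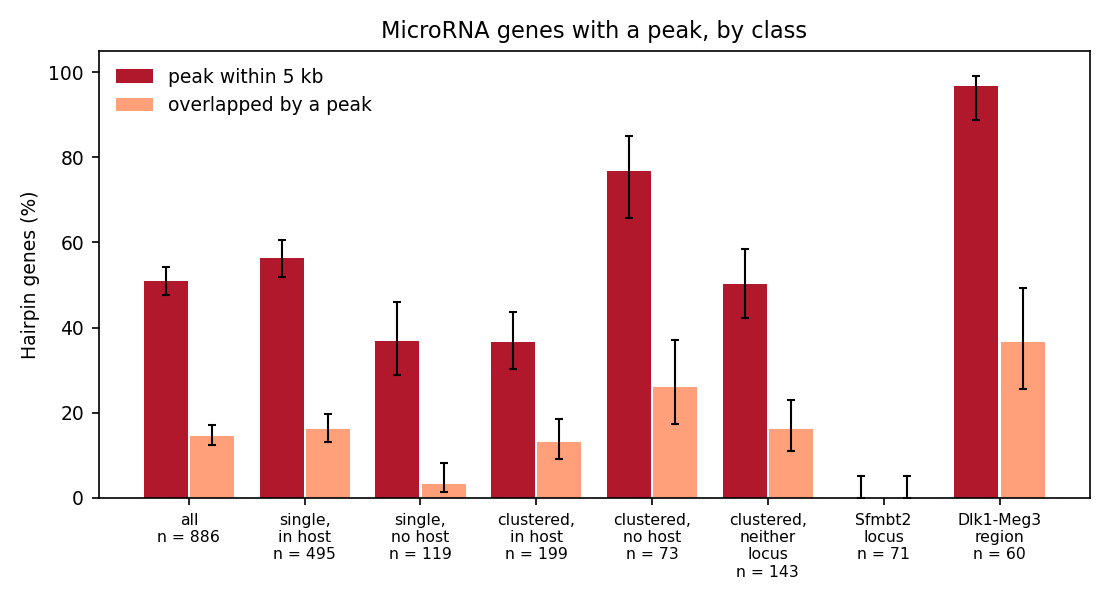
Share of hairpin genes in percent (y axis) with a peak within 5 kb (dark) and overlapped by a peak (light) by class, with 95% Wilson intervals and the number of genes below each. Single genes in a host stand at 56.4% and those with no host at 37.0%, and the Sfmbt2 and Dlk1-Meg3 loci stand at 0% and 96.7%.

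The orientation of hairpin and host could be read for 467 hosted genes. A peak was found within 5 kb in 59.0% of those on the strand of a host (243 of 412; 54.2% to 63.6%) and in 45.5% of those on the opposite strand (25 of 55; 33.0% to 58.5%), and the intervals overlap. Hosts were taken by span on either strand, so a host need not be the transcript that gives the hairpin. By number of microRNA genes the leading hosts were Sfmbt2 (71), Rtl1 (15), the lncRNA Mirg (10), and Larp7 and the lncRNA Gm51018 (5 each, the same genes). All 15 genes inside Rtl1 had a peak, and their part in the share of the 55 was not analysed here. By peaks near their microRNA genes they were Hspg2 and Pik3cd (8 each), Srebf1 and Plod3 (7 each) and Rtl1 (6, tied with others).

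Few host genes had a peak on a promoter window. With a window from 250 bases before to 50 after each start, a peak touched 8 of 456 host genes (1.75%; 0.892% to 3.42%), against 4.8% of all 19964 genes with such a window. The 8 were Pik3cd, Eng, Ctnnbip1, Gramd1c, Meg3, Mllt10, Mest and Gm33458. At Pik3cd the peak begins at the end base of the window (chr4:149663566). At Eng it begins at chr2:32646628, in a window that ends at 32646644. The windows touched in Pik3cd, Ctnnbip1, Gramd1c, Mllt10 and Mest belong to starts inside the span of the gene, that of Mllt10 close to its first base. Meg3 and Mest are imprinted genes that carry parental methylation marks in mouse, and their windows are printed as plus-strand DNA from RefSeq GRCm38.p6 with each CG in capitals. That of Meg3 (chr12:109540746-109541045) holds 13 CG and that of Mest (chr6:30737800-30738099) 17, where the median over all such windows is 7.
Meg3: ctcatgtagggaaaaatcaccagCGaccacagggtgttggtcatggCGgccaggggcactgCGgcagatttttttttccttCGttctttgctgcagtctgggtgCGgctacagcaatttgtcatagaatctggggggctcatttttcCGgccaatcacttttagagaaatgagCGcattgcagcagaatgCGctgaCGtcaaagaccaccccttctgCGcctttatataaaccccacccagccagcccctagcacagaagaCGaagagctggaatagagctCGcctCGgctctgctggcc
Mest: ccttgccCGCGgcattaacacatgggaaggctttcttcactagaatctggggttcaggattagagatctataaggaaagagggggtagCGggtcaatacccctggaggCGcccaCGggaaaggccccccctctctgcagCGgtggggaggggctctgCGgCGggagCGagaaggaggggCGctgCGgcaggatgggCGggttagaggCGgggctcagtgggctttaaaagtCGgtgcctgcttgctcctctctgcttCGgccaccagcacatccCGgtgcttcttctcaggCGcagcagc

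The Meg3 window lay under a wide peak (chr12:109540559-109542402, fold 12.8). The peak on the Mest window (chr6:30737824-30738072), 3351 bp upstream of Mir335, had 185 reads over a background of 55.5. Its fold of 3.29 was the lowest of the 792, although its reads exceeded the median of 133.5. A high background of this kind was rare among microRNA peaks and was found also near Mir3961, with 96.1, and Mir5125, with 94.7.

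A list of microRNAs studied in cartilage and limb development was drawn up by hand. Of its 55 names 53 matched the table by symbol or synonym and 43 lay on covered sequence. Mir140, the best known cartilage microRNA, was not analysed here. The name Mir92a-1 was not matched and is not counted, although Mir92-1 of the Mir17-92 cluster is covered and has a peak. A peak lay within 5 kb of 21 of the 43 (48.8%; 34.6% to 63.2%), close to the 51% of all hairpin genes. Peaks overlapped 9 of the 43 (20.9%, interval 11.4% to 35.2%), beside 14.6% of all hairpin genes, which lies within that interval. The 9 were Mir29b-1, Mir218-1, Mir218-2, Mir181a-1, Mir181b-1, Mir17, Mir101a, Mir365-1 and Mir143. The other 12 with a peak were Mir29a, Mir34a, Mir10b, Mir101b, Mir145a, Mir148a, Mir152, Mir193b, Mir203, Mir320, Mir495 and Mirlet7i.

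Among those without a peak were Mir455 in the cartilage collagen gene Col27a1, Mir199a-2 and Mir214 in Dnm3, Mir21a, Mir22, Mir204 and the Mir23b, Mir27b and Mir24-1 cluster. The overlap at Mir218-1 had a fold of 22.2 and that at Mir218-2, in Slit3, a fold of 29.6. At Mir181a-1 and Mir181b-1 a single peak with a fold of 9.36 covered both. The highest fold on the list, 48.0, was of a peak of 1451 bp at 2545 bp from Mir320. Mir10b, inside Hoxd3 and Hoxd4, had 3 peaks with folds of 19.2, 16.8 and 9.50, and its paralog Mir10a, inside Hoxb3, had none.

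The let-7 genes, which restrain growth in many tissues, had a peak in 1 of 8 cases (12.5%; 2.24% to 47.1%), beside 51% of all hairpin genes. The 8 genes stand at 5 loci, so they are not independent. The gene with a peak was Mirlet7i, with folds of 14.5 and 13.6 at more than 4 kb from the hairpin. The seed of let-7 and that of miR-15 and miR-16 were the most frequent among the covered genes with a mature sequence at hand, with 10 genes at 7 loci each. Genes without such a sequence were not counted. A peak stood at 1 of the 10 with the let-7 seed and at 0 of the 10 with the other, again beside 51% of all hairpin genes. The sequences show that let-7i differs from let-7a outside the seed.
mmu-let-7a-5p: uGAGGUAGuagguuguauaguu
mmu-let-7i-5p: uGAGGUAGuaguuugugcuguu

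MicroRNAs known to target DNA methyltransferases were listed separately, since the study concerns Dnmt1. The miR-29 family targets Dnmt3a and Dnmt3b, and the miR-148 and miR-152 family has been described to target Dnmt1 or Dnmt3b. Of the 12 genes listed 7 had a peak within 5 kb (58.3%; 32.0% to 80.7%) and 3 were overlapped, beside 51% and 14.6% of all hairpin genes. The 7 were Mir29a, Mir29b-1, Mir148a, Mir152, Mir101a, Mir101b and Mir143. Within each family the seed was the same and the peaks were not, as the mature sequences with the seed in capitals show.
mmu-miR-29a-3p: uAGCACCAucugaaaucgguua
mmu-miR-29b-3p: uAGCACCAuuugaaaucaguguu
mmu-miR-29c-3p: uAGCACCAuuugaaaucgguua
mmu-miR-148a-3p: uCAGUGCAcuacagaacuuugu
mmu-miR-148b-3p: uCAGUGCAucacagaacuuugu
mmu-miR-152-3p: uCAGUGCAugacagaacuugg

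Mir29a and Mir29b-1 on chromosome 6 shared 2 peaks, with folds of 36.5 (chr6:31061368-31061902) and 12.9 (chr6:31062995-31063409), and the latter covers Mir29b-1. Mir29b-2 and Mir29c on chromosome 1 had none within 5 kb. Both Mir29b genes give the same mature miR-29b-3p. Mir148a had a peak with a fold of 7.05 at 2575 bp, Mir152 one with a fold of 21.8 at 3175 bp, and Mir148b none.

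Other microRNAs made from separate loci were compared in the same way. Of 25 mature sequences found at more than 1 covered locus, 5 had a peak at every locus, 7 at some and 13 at none. Some are both arms of the same genes, and counted once for each set of genes the numbers were 5, 6 and 11 of 22. With a peak at 51% of all hairpin genes, these counts alone show nothing particular to copies. Those with a peak at every locus were miR-218-5p, miR-219a-5p, miR-194-5p, miR-692 and miR-8099. Those at some included miR-29b-3p, miR-181a-5p, miR-181b-5p, miR-199a-3p and miR-365-3p. MiR-199a-3p had one at Mir199b (fold 16.6) and none at Mir199a-2, and miR-365-3p had one at Mir365-1 (fold 7.19) and none at Mir365-2. Those at none included miR-9-5p, miR-16-5p, miR-103-3p and miR-196a-5p.

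The genes of the microRNA pathway had peaks in their own bodies. Of 24 listed genes 23 lay on covered sequence, and 18 had at least 1 peak in the body (78.3%; 58.1% to 90.3%), against 64.7% of 15762 protein-coding genes. The listed genes were longer, with a median of 44.1 kb against 18.6 kb. Drosha, the nuclear nuclease that frees the hairpin, had 35 peaks with folds of up to 47.8. Adarb1 and Tnrc6c had 12 each, Ago2, the slicer, had 10, and Dicer1, Dis3l2 and Xpo5 had 6 each. Prkra, Srrt and Tnrc6b had 5 each, Ago1 had 4, Adar and Tut7 had 3, Tut4 and Ddx17 had 2, and Ago4, Dgcr8 and Tarbp2 had 1. Ago3, Ddx5, Lin28a, Lin28b and Ran had none. In Dgcr8, the partner of Drosha, the single peak of the body (fold 38.5) covered the microRNA gene Mir1306. In Srrt, a cofactor of hairpin processing, Mir7036 was covered by a peak with a fold of 36.6.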

How the data were processed

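The labels describe 6 MBD-seq libraries of primary chondrocytes, 3 control and 3 cKO. The processing notes of the submitters name fastp, Bowtie2, MACS2, mm10 and GRCm38, with no versions. Per the peak names, 3 datasets were merged with Samtools before peak calling. Of the deposited columns, 1 holds fold enrichment (a ratio), 2 hold −log10 p and −log10 q, and 1 holds a score that the authors' peak caller derived from q. An incomplete final line was dropped. Peaks lie on chromosomes 1 to 5 and 10 to 19 and part of chromosome 6, and genes in the first 3 Mb of a chromosome or beyond the last peak of it were not analysed here.

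Peaks were placed by midpoint on the GRCm38.p6 RefSeq gene table, which has no exons, with Python 3.11.15, pandas 2.3.3, numpy 2.4.6 and scipy 1.17.1. Pileup and background were solved from fold and p for a whole-number pileup within 1% of the step between pileups. These steps were checked on simulated data. No p-values were computed, since no value belongs to a sample. The named genes were those with most peaks (10), the highest folds (5), the highest overlapping folds (10), the leading clusters and hosts (5 each by genes and by peaks) and the members of 3 lists. All members and lists were chosen with earlier results of these data known, and groupings by symbol number, hairpin end, CG content, strand and shared sequence after seeing the data.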

Additional observations from a re-analysis of the deposited data

How the results depend on the processing

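No paired analysis was possible because the peaks carry no sample values. Of 145 recomputed values 75 stayed within the interval of the reported one (counts within 1.5 times), among them all those with peaks placed by summit or by any overlap, or merged within 500 bp. Stricter filters and smaller windows lower shares by construction. The share of peaks at the lowest background was not recomputed where peaks were chosen by it. Leaving out loci was chosen after seeing the data.

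The share of microRNA genes with a peak was 43.1% with −log10 q limited to 50 and above, 35.2% with a limit of 100, 38.6% with folds no lower than the median, 46.5% at the lowest background alone and 10.0% above it, 25.6%, 35.1% and 62.6% with windows of 1, 2 and 10 kb, and 55.5% without the Sfmbt2 genes. For genes numbered below 1000 it was 52.1% without the Sfmbt2 genes. For clustered genes it was 38.6%, 31.6% and 35.3% under the first 3 filters, 12.5% above the lowest background, 27.9%, 34.6% and 53.7% with these windows, 64.2% without Sfmbt2 and 33.6% without the Dlk1-Meg3 genes. For single genes it was 45.1%, 36.8%, 40.1%, 48.5%, 8.96%, 24.6%, 35.3% and 66.6% in the order first given. For hosted genes it was 43.2%, 35.9%, 39.2%, 46.1%, 10.5%, 26.5%, 35.6% and 62.7%, and 54.5% without both loci. For genes with no host it was 42.7%, 32.8% and 36.5%, then 8.33% above the lowest background, 22.4%, 33.3% and 62.5% with the windows, and 43.8% without both loci. Clustered genes thus had a higher share than single ones with the 1 kb window, above the lowest background and without Sfmbt2. With each cluster counted once, the share of 53.0% was also above the 52.6% of single genes, by less than the counting error. Hosted genes had a lower share than the others as reported, at the lowest background and under the 3 placements above, and a higher one otherwise.

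The number of peaks was 436 with the limit of 100, 492 at the median fold, 78 above the lowest background, and 230, 392 and 1350 with the 3 windows. The median fold was 21.6, 26.1 and 25.03 under the 3 filters, 23.4 above the lowest background and 18.7 within 1 kb. The median width was 505.5, 582 and 550.5 bp, then 413 bp at the lowest background, 855 bp above it and 478.5 bp within 1 kb. The share at the lowest background was 87.5%, 83.3% and 87.2% under the 3 filters. The cartilage list had a peak at 25.6% of genes at a −log10 q of 100, 32.6% at the median fold, 6.98% above the lowest background and 25.6% within 1 kb. Above the lowest background the methyltransferase list had 8.33% and the pathway genes 21.7%. No cause of these changes was tested.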
